A study of Zea mays with 4 samples.

Results

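Root tips of 15-day maize seedlings were set against root tips of younger seedlings, miRNA by miRNA, in a table of 576 mature miRNA entries. The 15-day libraries were the later primary root (PRO) and the crown root (CR), both taken 15 days after germination. The younger libraries were the early primary root (PRY, 3 days) and the seminal root (SR, 7 days). All 4 came from Zea mays cultivar Zhengdan 958, a hybrid, grown in Hoagland's nutrient solution with no stress treatment in the labels, and the terminal 1 cm of the root was taken. PRY, SR and CR roots were chosen at lengths of about 3 to 5 cm, and no length is given for PRO. Each root gave 1 library, so the 2 libraries of a side are different roots and not replicates. PRY (3 days) and SR (7 days) also differ from each other in age. Below, an age means a side of the comparison, 15-day or younger. A difference inside the younger age thus mixes root type and days. PRO and PRY share a root type, whereas CR and SR differ in both type and age, and between those 2 libraries age and root type cannot be told apart.

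An entry was used when it had 20 or more reads in any library, and 221 of 576 entries did. It met the comparison when the lower value at one age was at least 2-fold above the higher value at the other age. The ratio of those 2 values is called the gap. Levels are in RPM, that is, a miRNA's reads scaled to a library total of 1000000, and 1 read was worth 0.0864 to 0.0933 RPM. Library totals lay between 10721082 reads (PRY) and 11572637 reads (SR). Intervals of ratios are 95% exact conditional binomial intervals (Clopper-Pearson). They cover counting error only and not the spread between roots of a type, since each root gave 1 library. Amplified reads lacking molecular identifiers cannot be counted as separate molecules, so the intervals may be too narrow even for counting error. In a whole root tip, fewer cells of a type and less of a miRNA per cell cannot be told apart. As a check on other tissue, the miR2118 and miR2275 families, which trigger phased siRNAs in grass reproductive organs, reached at most 1 read in any library.

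Plant miRNAs are cut by a Dicer protein from hairpin precursors as a duplex of 2 strands, the 5p and the 3p arm. One strand is loaded into an Argonaute protein and directs it to transcripts with a closely matching site, often those of transcription factors or of nutrient transport. Related loci can give mature strands so alike that a read matches several entries. The 221 entries held 175 distinct sets of reads when entries of a family with the same read count in every library were counted once. Entries that differed by even a single read were kept apart, so reads that match several entries can still be counted repeatedly. This also holds for the total over distinct miRNA entries, used below as a scaling. The distinct sets of miR156, for instance, summed to 1768982 reads in PRY, where no miR156 entry exceeded 223007.

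In the 15-day libraries 22 of the 221 entries met the gap as higher, which is 9.95% of those tested, and 5 met it as lower, which is 2.26%. The 22 higher entries were 18 of miR395, the sulfate-related family, with miR169g and 3 candidate miRNAs predicted by the authors. The 5 lower entries were miR169o-5p and 4 candidates. Of the 194 entries that failed, 143 had overlapping ages, 24 were higher in both 15-day libraries by less than 2-fold, and 27 were lower in both by less than 2-fold. With or without the 2-fold limit, then, 46 entries (20.8%) were higher without overlap and 32 (14.5%) were lower. Among the 154 known entries tested, 19 met the gap as higher (12.3%) and 1 as lower (0.649%). With identical entries counted once, 10 of 175 were higher (5.71%) and 5 were lower (2.86%).

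The entries that met the gap were all scarce. Their highest level in any library lay between 2.24 and 13.3 RPM with a median of 5.61, whereas the entries that failed reached 67560 RPM and had a median of 14.6. Each of the 27 reached 20 reads at 1 age alone, so its place among the tested entries came from the age at which it was high. Of the 154 entries with 20 or more reads at both ages, 0 met the gap in either direction. This restriction was added after the data were seen.

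**Figure D1:**
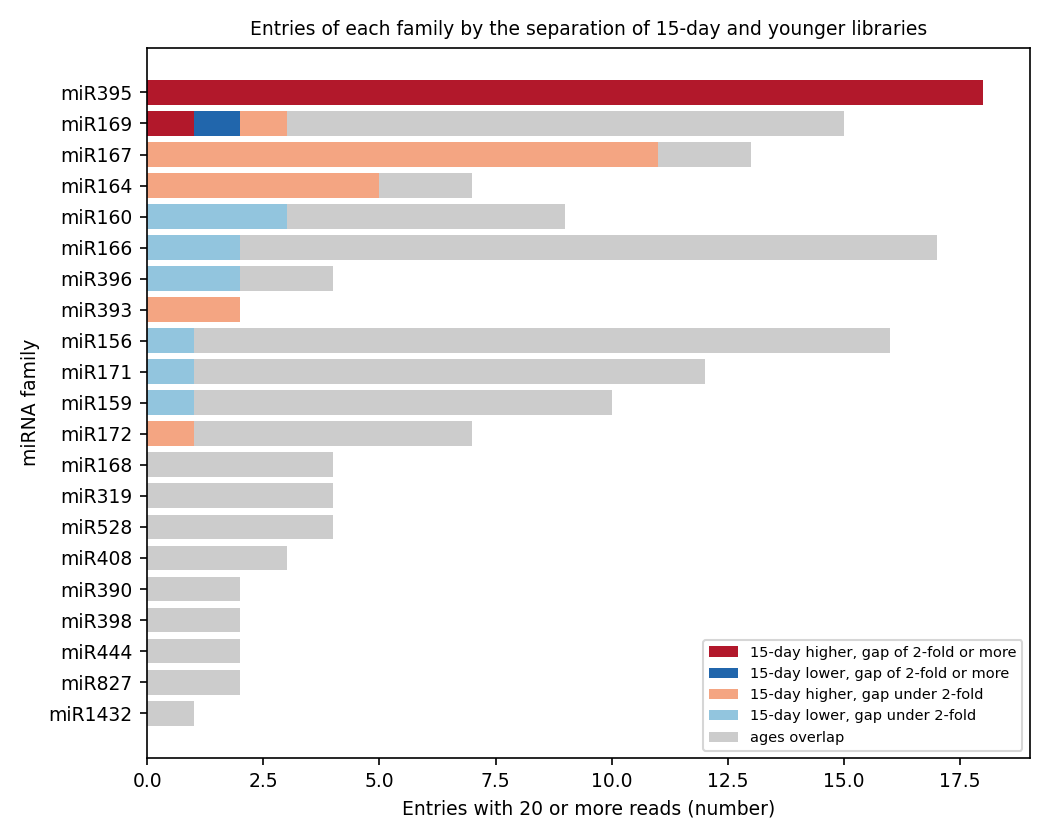
Number of entries with 20 or more reads in each known miRNA family (horizontal axis), coloured by whether both 15-day libraries (PRO, CR) lay above or below both younger ones (PRY, SR) and by how much. All 18 miR395 entries met the 2-fold gap, and the only other known family with such entries was miR169, with 1 higher and 1 lower of 15.

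miR395 represses ATP sulfurylase, which activates sulfate for assimilation, and a low-affinity sulfate transporter, and in Arabidopsis it accumulates when sulfate is short. The table held 32 entries of the family, both arms of 16 loci. Of these, 18 were tested, 11 of the 3p arm and 7 of the 5p arm, and each met the gap as higher in the 15-day libraries. The 3p arm is the strand known to act on these targets. Since the 18 entries hold only 6 distinct sets of reads, they are not 18 separate observations. The 2 sets of the 3p arm differ by a single read and are not separate from each other either.

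miR395a-3p stood at 5.61 RPM in PRO and 4.30 in CR, against 0.0933 in PRY and 0.0864 in SR. In reads this was 62 and 47 in PRO and CR, against 1 each in PRY and SR. The same values were listed for 8 entries of the 3p arm, those of loci a, d, e, g, h, j, n and p. The 15-day values lay close to each other and far above both younger ones, with a gap of 46.1 (7.89 to 1861), whose upper end is wide because the denominator is 1 read. miR395b-3p, miR395f-3p and miR395i-3p differed from these by a single read, with 62 and 47 in PRO and CR against 2 and 1 in PRY and SR, and their gap was 23.1 (6.04 to 196).

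The 5p arm had the same separation. miR395e-5p, with the same reads as the entries of loci h, j and p, had 51 reads in PRO and 61 in CR, against 1 in PRY and 2 in SR. Its levels were 4.61 and 5.59 RPM in PRO and CR, against 0.0933 and 0.173 in PRY and SR, a gap of 26.7 (7.02 to 226). miR395b-5p had 33 and 51 reads in PRO and CR, against 1 and 3 in PRY and SR, a gap of 11.5 (3.61 to 58.7). The narrowest gaps of the family were those of its remaining tested 5p entries, in which the ages still did not overlap. miR395o-5p had 26 and 43 reads in PRO and CR, against 0 and 4 in PRY and SR, a gap of 6.80 (2.36 to 26.8). miR395n-5p had 27 and 40 reads in PRO and CR, against 2 and 5 in PRY and SR, a gap of 5.65 (2.15 to 18.8). In PRY and SR no tested entry exceeded 5 reads, while in PRO and CR none fell below 26.

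Within the 15-day age the family differed far less than between the ages. The ratio of its higher to its lower 15-day value was 1.21 to 1.67 over the tested entries, with PRO above CR in the 3p arm and CR above PRO in the 5p arm. For miR395a-3p the ratio of PRO to CR was 1.30 (0.877 to 1.95), and for miR395e-5p the ratio of CR to PRO was 1.21 (0.821 to 1.79). Both intervals include 1, so in these entries a difference between the roots of 15 days was not detectable at this depth. In miR395o-5p, which had the widest ratio, CR was 1.67-fold above PRO and the interval of 1.01 to 2.84 excludes 1.

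**Figure D2:**
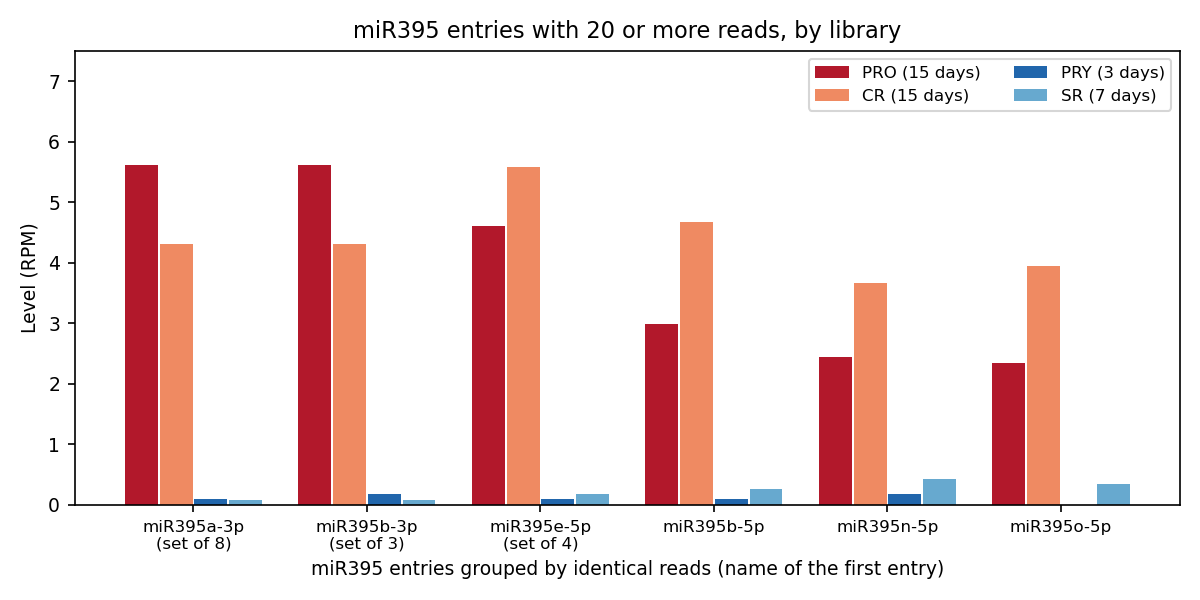
Level in RPM (vertical axis) of the 6 distinct sets of reads among the tested miR395 entries, with a bar for each library and PRO and CR left of PRY and SR. The bars of PRO and CR stand between 2.35 and 5.61 RPM, and those of PRY and SR at 0.432 RPM or below.

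The members of the family that stayed below the minimum were mostly from 1 group of loci. In RefSeq's gene table for the maize assembly Zm-B73-REFERENCE-NAM-5.0, 15 of the 16 loci were matched by name, and they lay in 3 groups of directly neighbouring genes. The group of 8 loci (d, f, g, e, i, h, b and a) gave 11 of its 16 entries to the test, and the group of 3 (n, o and p) gave 5 of its 6. The group of 4 (k, l, m and c) gave 0 of its 8, and its highest entry had 1 read. Because entries of different loci hold the same reads, the loci from which those reads came cannot be told apart. Of the 14 untested entries of the family, 7 were at 0 in all 4 libraries and the other 7 had at most 4 reads, all of them in PRO or CR.

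The limma test on log2(RPM + 1) took the spread between the 2 roots of an age as its error. For PRY and SR this spread includes their difference in days. By empirical Bayes the test drew the spread of each entry toward that of all 221 entries. At an adjusted p of 0.05 or less it called 16 entries higher in the 15-day libraries (7.24% of 221) and 2 lower (0.905%). Of the 16, 15 were miR395 entries and 1 was a candidate, and both lower ones were candidates. For miR395a-3p the difference of log2(RPM + 1) was 2.44 (SE 0.395) with an adjusted p of 0.0299 by limma. miR395b-5p, miR395n-5p and miR395o-5p were not called by limma, with adjusted p-values of 0.0675, 0.126 and 0.116. The calls depended on the repeated entries: with identical entries counted once limma called 0 higher and 0 lower, with 10 and 4 at an unadjusted p of 0.05 or less, and miR395a-3p had an adjusted p of 0.0879. On all 221 entries edgeR's quasi-likelihood test on recovered reads called 15 higher (6.79%), all miR395, and 1 lower (0.452%), and DESeq2 called 18 higher (8.14%) and 3 lower (1.36%). With identical entries counted once edgeR's test called 0 and 0 (7 and 4 at an unadjusted p of 0.05 or less), and DESeq2 called 6 and 3. A limma fit with primary or other root as a term, added after the data were seen, leaves 1 residual degree of freedom. It called 0 higher and 0 lower, with 21 and 14 at an unadjusted p of 0.05 or less and a smallest adjusted p of 0.0851. An exact permutation test of 2 libraries against 2 cannot give a two-sided p below 0.333.

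**Figure D3:**
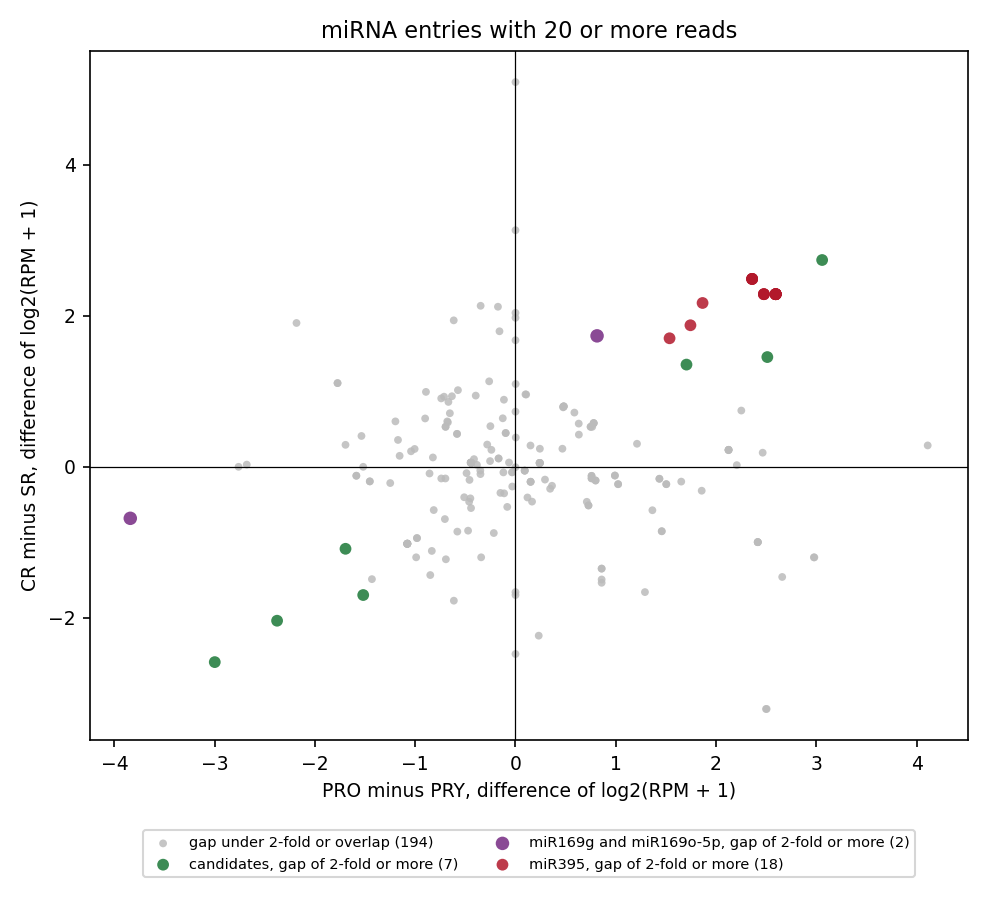
Difference of log2(RPM + 1) between PRO and PRY (horizontal axis) and between CR and SR (vertical axis) for the 221 entries with 20 or more reads. The 18 miR395 entries lie together at the upper right, most entries that failed lie nearer the origin or along 1 axis, and the 7 candidates that met the gap lie along both directions of the diagonal.

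Beside miR395, the nutrient list held miR399, which represses the phosphate regulator PHO2, and miR827, which acts on SPX-domain proteins of phosphate and nitrogen status. Of the 20 tested entries of the list 18 met the gap as higher and 2 did not, where 9.95% of all tested entries met it as higher. The 18 were the miR395 entries described above, which reached 20 reads in the 15-day libraries alone. The median difference of the list was 2.42 on the log2 scale against 0.05 over all entries tested. It rests on repeated miR395 entries, and over the 8 distinct sets of reads in the list it was 1.91. The 2 that failed were those of miR827. miR827-3p stood at 7.05 RPM in PRO and 3.48 in CR, against 4.20 in PRY and 2.33 in SR, so the ages overlapped with the library total. With the other 3 scalings they did not, and its gap toward higher was 1.79 with the distinct miRNA total, 1.34 with TMM factors and 1.16 with DESeq2 factors. No entry of miR399 reached 20 reads. miR399e-3p, named after its values were seen, had 2 reads in PRO and 14 in CR, against 0 in both PRY and SR.

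miR169 targets transcripts of NF-YA transcription factor subunits. Of its 15 tested entries 1 met the gap as higher, 1 met it as lower, 1 was higher by less than 2-fold and 12 overlapped. Of all 221 tested entries 9.95% met the gap as higher and 2.26% as lower. miR169g had 12 reads in PRO and 38 in CR, against 2 in PRY and 4 in SR. Its levels were 1.09 and 3.48 RPM in PRO and CR, against 0.187 and 0.346 in PRY and SR, a gap of 3.14 whose interval of 0.952 to 13.4 includes 1. miR169o-5p went the other way, with 0 reads in both PRO and CR, against 143 in PRY and 7 in SR. Its gap of at least 2.20 rests on those 7 reads and on a floor of 3 reads for the 15-day libraries, and with the distinct miRNA total as scaling it was 1.81. miR169c-5p, the highest entry of the family, stood at 71.6 RPM in PRO and 57.6 in CR, against 66.8 in PRY and 29.1 in SR. Its ages overlapped with the library total, whereas with the other 3 scalings its gap toward higher was 1.10 to 1.53. The widest difference inside an age in the meristem and patterning list was also in this family. miR169k-3p stood at 19.9 RPM in PRO and 2.56 in CR, against 31.4 in PRY and 0.864 in SR, so both primary roots lay above both other roots.

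Among candidates, 67 of 255 were tested, 3 met the gap as higher and 4 as lower. Of all 221 tested entries 9.95% met it as higher and 2.26% as lower. The most abundant of the 7 had 124 reads in PRO and 144 in CR, against 5 in PRY and 13 in SR. Its levels were 11.2 and 13.2 RPM in PRO and CR, against 0.466 and 1.12 in PRY and SR, a gap of 9.98 (5.63 to 19.3). A candidate with 52 and 19 reads in PRO and CR and 0 in PRY and SR was at least 6.22-fold higher, and another with 25 and 17 reads was at least 5.56-fold higher. The lower candidates were all at 0 in PRO and CR. They had 75 and 58, 45 and 36, 20 and 26, and 24 and 13 reads in PRY and SR, which made them at least 18.2-fold, 11.3-fold, 6.79-fold and 4.09-fold lower. So 6 of the 7 were listed at 0 in both libraries of an age. The values alone do not show whether a listed 0 means no reads or a candidate not predicted in that library. The folds of those 6 hold only if it means no reads. A further 10 tested candidates had reads in a single library, 5 of them in CR, and could not meet the gap.

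The known entries with the gaps nearest below the 2-fold limit came from auxin signalling. miR393 targets the TIR1/AFB auxin receptors, miR167 and miR160 target different groups of auxin response factors, and miR390 starts the production of trans-acting siRNAs against further ones. miR393c-5p had 35 reads in both PRO and CR, against 19 in PRY and 18 in SR, a gap of 1.79 (0.994 to 3.31). miR393a-5p had 38 and 39 reads in PRO and CR, against 20 and 24 in PRY and SR, a gap of 1.66 (0.969 to 2.89). In both entries the 2 libraries of an age were nearly equal and the ages did not overlap, but the intervals of the gaps include 1.

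Of 13 tested miR167 entries 11 were higher in both 15-day libraries (10 with each of the other 3 scalings), none by 2-fold. miR167f-5p stood at 648 RPM in PRO and 631 in CR, against 377 in PRY and 422 in SR, a gap of 1.5 (1.44 to 1.55). miR167b-5p, the highest entry, stood at 1258 and 826 RPM in PRO and CR, against 288 in PRY and 709 in SR, a gap of 1.17 (1.13 to 1.20). SR thus lay close below CR, and without SR the gap was 2.87. The star strand miR167h-3p did not follow, at 53.3 RPM in PRO and 176 in CR, against 185 in PRY and 81.0 in SR. Nor did miR167i-3p, whereas the star strand miR167b-3p was among the 11 higher entries, with a difference of log2(RPM + 1) of 0.76. All 3 miR160 entries that lay lower without overlap were 3p strands. The other 6, the 5p strands and miR160e, overlapped, with differences of log2(RPM + 1) of 0.02 or -0.02. miR160a-3p stood at 10.5 and 7.69 RPM in PRO and CR, against 17.7 and 13.0 in PRY and SR, a gap of 1.24 (0.970 to 1.60) toward lower. miR390a-5p overlapped, at 75.4 RPM in PRO and 33.5 in CR, against 45.1 in PRY and 48.2 in SR. Over the auxin list 13 of 26 entries were higher without overlap and 3 lower, where 20.8% and 14.5% of all tested entries were. The median difference was 0.35 on the log2 scale. The 26 entries held 17 distinct sets of reads, and 11 of the 13 higher entries were of miR167, so they are not separate observations. None of the 26 was called by limma, with an adjusted p of 0.643 for miR167b-5p.

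miR156 and miR172 mark the juvenile-to-adult change of the shoot, miR156 by repressing SPL transcription factors and miR172 by repressing AP2-like ones. Of their 23 tested entries 0 met the gap, 1 was higher without overlap, 1 lower and 21 overlapped. Of all tested entries 20.8% were higher without overlap and 14.5% lower. miR156d-5p stood at 10527 RPM in PRO and 4576 in CR, against 20801 in PRY and 8807 in SR. PRO exceeded SR by 1.20-fold (1.19 to 1.21), so the ages overlapped. Within the primary root PRO was at 0.506 times PRY (0.502 to 0.510), and CR was at 0.520 times SR (0.514 to 0.525). The level was thus lower at 15 days in both of these comparisons, of which only the first is within a root type. With each of the other 3 scalings 11 of the 16 miR156 entries were lower in both 15-day libraries, still by less than 2-fold. With the distinct miRNA total 4 were higher, and with TMM factors 1 was. Of all 221 entries, 21 were lower without overlap with the distinct miRNA total, 35 with TMM factors and 41 with DESeq2 factors. Those higher numbered 72 with the distinct miRNA total and 55 with TMM factors. The miR156 entries can share reads, so they are not separate observations. miR172a stood at 103 RPM in PRO and 24.6 in CR, against 18.5 in PRY and 50.2 in SR. The 15-day roots differed 4.18-fold (3.65 to 4.79) in it, and without CR the gap of PRO was 2.05. miR172d-5p had the widest difference inside an age in this list, at 26.8 RPM in PRO and 4.21 in CR, against 2.52 in PRY and 11.0 in SR.

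The copper-responsive families had 0 of 9 entries without overlap, where 20.8% of all tested entries were higher without overlap and 14.5% lower. miR528, a monocot family that acts on transcripts of copper proteins, differed widely in its highest entry inside each age. miR528b-5p stood at 6830 RPM in PRO and 479 in CR, against 1203 in PRY and 4439 in SR. PRO was 14.3-fold above CR (13.9 to 14.7), and SR was 3.69-fold above PRY (3.62 to 3.76). Across the ages the differences went both ways, with PRO 5.68-fold above PRY and SR 9.26-fold above CR. By limma the difference of log2(RPM + 1) between the ages was -0.35 (SE 1.44, adjusted p 0.972). Without PRO, miR528b-5p met the gap as lower, with a value of 2.51. miR528a-5p was nearly equal to it in every library. miR408b-5p, the 5p strand of a family that targets plantacyanin and laccases, stood at 27.1 RPM in PRO and 16.4 in CR, against 3.45 in PRY and 46.8 in SR. SR was the highest of the 4, and without it the gap was 4.75 toward higher. The copper/zinc superoxide dismutase regulator miR398a-3p had 25 reads in PRO and 4 in CR, against 2 in PRY and 17 in SR.

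**Figure D4:**
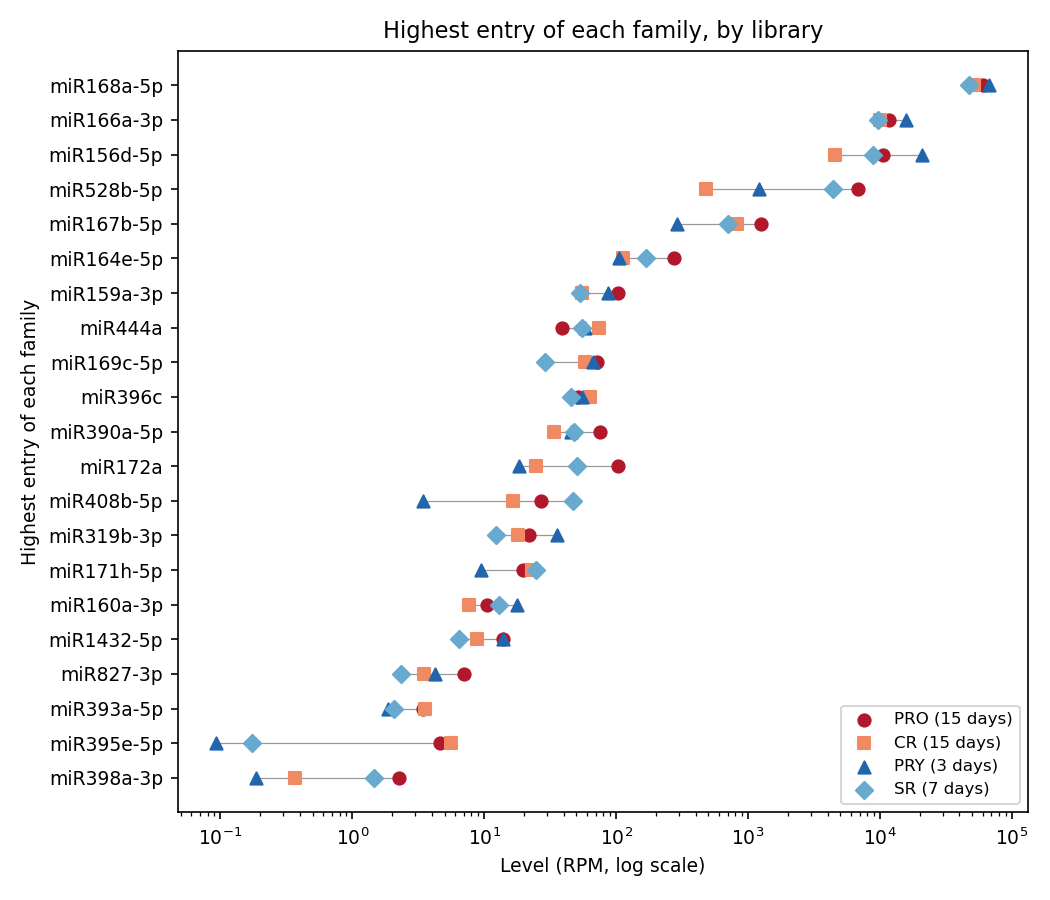
Level in RPM on a log axis of the highest entry in each of the 21 known families with a tested entry, with a symbol for each library. Only for miR395e-5p do PRO and CR (4.61 and 5.59 RPM) stand apart from PRY and SR (0.0933 and 0.173 RPM) by 2-fold or more, and for miR528b-5p the libraries of each age lie far apart.

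The meristem and patterning list had 69 tested entries. Of these, the 2 of miR169 given above met the gap, 12 were separated by less than 2-fold and 55 overlapped. With or without the 2-fold limit, 7 were higher without overlap and 7 lower, where 20.8% and 14.5% of all tested entries were. The median difference of the list was 0.15 on the log2 scale. miR164 targets NAC transcription factors, among them regulators of lateral root formation in Arabidopsis. Of its 7 tested entries 5 were higher in both 15-day libraries by less than 2-fold with the library total, and with each of the other 3 scalings none was. miR164e-5p, the highest, stood at 273 RPM in PRO and 113 in CR, against 105 in PRY and 168 in SR. The miR171 family acts on GRAS transcription factors, and its highest entry, miR171h-5p, stood at 19.7 RPM in PRO and 22.9 in CR, against 9.42 in PRY and 24.9 in SR, so PRY alone was low. Without SR its gap was 2.09.

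miR166a-3p, a repressor of the class III HD-ZIP genes of organ polarity, stood at 11684 RPM in PRO and 9969 in CR, against 15878 in PRY and 9618 in SR. miR159a-3p, which targets MYB transcription factors, stood at 103 and 55.4 RPM in PRO and CR, against 87.1 and 53.6 in PRY and SR. Both primary roots lay above both other roots in these entries. The ages of miR159a-3p did not overlap with the distinct miRNA total (gap 1.26 toward higher) and with TMM factors (1.02). miR319b-3p, which targets TCP transcription factors, stood at 21.7 and 18.0 RPM in PRO and CR, against 35.8 and 12.2 in PRY and SR, with the 15-day values inside the range of the younger ones. miR396c, which targets growth-regulating factors, stood at 51.1 and 62.8 RPM in PRO and CR, against 54.8 and 45.8 in PRY and SR.

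miR168a-5p, which targets AGO1 and was the most abundant entry in each library, stood at 60102 RPM in PRO and 51319 in CR, against 67560 in PRY and 47529 in SR. All 4 tested entries of the small RNA machinery list overlapped with the library total, whereas 4 were higher without overlap with the distinct miRNA total and 3 with TMM factors. Of all 221 entries, 72 and 55 were higher without overlap with these 2 scalings. The widest difference inside an age there was in miR168a-3p, at 17.5 RPM in PRO and 22.5 in CR, against 23.4 in PRY and 11.2 in SR. The 3 tested monocot entries overlapped with the library total, and 1 of them, miR1432-5p, was higher without overlap with the distinct miRNA total (gap 1.37) and with TMM factors (gap 1.02). miR444a, which targets MADS-box transcription factors, stood at 38.7 RPM in PRO and 74.7 in CR, against 58.5 in PRY and 55.0 in SR. miR1432-5p stood at 13.9 and 8.79 RPM in PRO and CR, against 13.9 and 6.48 in PRY and SR.

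Over all 221 entries, PRO and CR differed from each other less than from either younger library. PRY and SR, which also differ in days, differed more than PRO and SR or CR and SR. The median absolute difference of log2(RPM + 1) was 0.51 between PRO and CR and 0.65 between PRY and SR. Between the ages it was 0.75 for PRO and PRY, 0.60 for PRO and SR, 0.69 for CR and PRY, and 0.57 for CR and SR. By 1 log2 unit or more, 59 entries differed between PRO and CR and 86 between PRY and SR. Between the ages 83 did for PRO and PRY, 65 for PRO and SR, 95 for CR and PRY, and 70 for CR and SR. The means of the ages differed that much for 33 entries toward higher and 21 toward lower, and in 15 of these the ages overlapped, 8 of them entries of miR156.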

How the data were processed

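Small RNA of 18 to 30 nt was cut from gels, ligated to adapters and amplified over 18 PCR cycles, per the labels' protocols. The deposited table is headed TPM. Its values behaved as RPM as deposited by the authors, whole multiples of 1 step per library, and 100% came out as whole reads within 0.01 read. The sources used here do not give the aligner, the miRNA release or which reads make up a total. The members, lists and tests were chosen with earlier results of these data known.

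Ages were set from the labels (15 days against 3 and 7). A higher value of 0 reads was put at a floor of 3 reads (0.259 to 0.280 RPM). The limma test (3.58.1) used log2(RPM + 1), with a pseudocount of 1 RPM that understates folds of low entries, and Benjamini-Hochberg adjustment over all 221 entries. Treating the 2 roots of an age as replicates, its p-values set a difference only against the spread between them. Empirical Bayes draws that spread toward the one over all entries tested, so the SE of an entry also rests on the other entries. Alternatives used edgeR 4.0.16 TMM factors and quasi-likelihood test and DESeq2 1.42.0 on recovered reads, other minimums, gaps and pseudocounts, identical entries counted once, primary or other root as a term, and each library left out. Named entries were those that met the gap, the highest of each family, the 4 gaps nearest below 2 in each direction and the family with the widest difference inside an age per list. The code was tested on simulated data. Python 3.11.15, pandas 2.3.3, numpy 2.4.6, scipy 1.17.1, matplotlib 3.10.9 and R 4.3.3 were used.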

Additional observations from a re-analysis of the deposited data

How the results depend on the processing

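With the total over distinct miRNA entries, TMM factors or DESeq2 size factors, 22 entries were higher by the gap and 5 or 6 lower, and the 18 miR395 entries were among the higher ones in each. These scalings moved the median difference over all entries by up to 0.29 on the log2 scale. Entries without overlap numbered 46 higher and 32 lower with the library total, 72 and 21 with the distinct total, 55 and 35 with TMM factors, and 41 and 41 with DESeq2 factors. The gap counts of 22 higher and 5 lower became 33 and 18 without a minimum and 1 and 1 with 100 reads, a minimum that no miR395 entry reached. They became 10 and 5 with identical entries counted once, 25 and 12 with a 1.5-fold gap, and 19 and 0 where the lower end of the interval had to reach 2, which leaves out entries with 0 reads at an age. With 20 reads at each age, a choice made after seeing the data, they were 0 and 0. Leaving out 1 library gave 28 to 36 higher and 7 to 28 lower, and since 1 value fewer has to be cleared these counts cannot fall below 22 and 5. The higher count was 35 without CR and 36 without SR, and the lower count was 22 without PRO, 17 without PRY and 28 without SR.

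The limma counts of 16 higher and 2 lower became 0 and 0 with 100 reads (1 and 0 unadjusted), with identical entries counted once, with a pseudocount of 10 RPM (24 and 5 unadjusted) and without any 1 of the 4 libraries (20 to 27 and 4 to 16 unadjusted). In the last case 1 age has a lone library, which is assumed to vary like the other age, and 1 residual degree of freedom is left. With primary or other root as a term, a choice made after seeing the data, the counts were 0 and 0, also with identical entries counted once (9 and 14 unadjusted). The counts were 19 and 4 with a pseudocount of 0.1 RPM, 15 and 1 by edgeR's quasi-likelihood test and 18 and 3 by DESeq2, and the cause of these differences was not tested. With identical entries counted once, for these tools also chosen after seeing the data, edgeR gave 0 and 0 and DESeq2 6 and 3. Of 141 values for 47 named known entries under the other 3 scalings, 140 stayed on their side of the 2-fold gap and 0 reversed. A reversal could be counted only for the 20 entries that met the gap, of which 18 were miR395 entries with wide gaps. A change between overlap and a gap under 2-fold counted as no change. With 0 to 5 miR395 reads in PRY and SR, depth limits the size of those gaps.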

Other observations

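Below the minimum of 20 reads, 24 of 280 entries with reads met the 2-fold gap, 11 higher and 13 lower in the 15-day libraries. Of the 92 known ones among the 280, 9 were higher and 5 lower. The entries named here were chosen after their values were seen. Of 14 such entries of miR169, 6 were higher and 0 lower. Several of the 6 had the same reads in every library, so they are not separate observations. miR169f-5p and miR169h each had 11 reads in PRO and 19 in CR, against 2 in PRY and 4 in SR. miR169m-5p, miR169n-5p and miR169q-5p each had 5 and 6 reads in PRO and CR, against 0 and 1 in PRY and SR, and miR169l-5p had 2 and 9 reads in PRO and CR, against 0 and 1 in PRY and SR. miR319a-5p and miR319c-5p each had 6 and 7 reads in PRO and CR, against 2 and 1 in PRY and SR. miR162-3p, which targets the Dicer gene DCL1, had 12 and 11 reads in PRO and CR, against 2 and 5 in PRY and SR. miR397b-5p, which targets laccases, had 1 read each in PRO and CR, against 5 and 9 in PRY and SR. The other lower known entries were miR156h-3p, miR166j-3p, miR166n-3p and miR398b-5p, each with at most 1 read in PRO and CR and with 2 to 9 reads in PRY and SR.

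The candidate with the highest level among those in a single library stood at 33.2 RPM in CR and at 0 in the other 3 libraries. Another candidate, named after its values were seen, stood at 1365 RPM in PRO and 1122 in CR, against 286 in PRY and 669 in SR, a gap of 1.68 (1.63 to 1.73). It was the most abundant entry with a gap between 1.5 and 2. The candidates nearest below the limit toward lower had gaps of 1.98, 1.89, 1.79 and 1.71, and 2 of them were at 0 in CR.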
